A study of Mus musculus with 2 samples.

Results

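The genes described here are 8 transcription factors of the monocyte and dendritic lineages, Irf8, Irf4, Klf4, Spi1, Zeb2, Nr4a1, Batf3 and Tcf7l2, of 32285 genes counted in the study. They were chosen by symbol, for their role in the lineage, but with earlier results of these data known. All 8 were found in both count tables. The cells were myeloid-derived suppressor cells (MDSC) grown from marrow of C57BL/6 mice, all female and 10 weeks old. Both cultures received GM-CSF and IL-6 at 50 ng/mL each for 4 days, one with dabrafenib (DAB), an inhibitor of mutant BRAF, at 1.5 µmol/L and the other with DMSO, its solvent. One single-cell library was made per culture with the 10x Genomics 5′ v2 chemistry, and how many mice went into each is not stated in the labels or methods. The comparison asks how these factors differed between DAB and DMSO, over all cells and within each type of cell.

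Myeloid cells in the marrow choose between neutrophil, monocyte and dendritic fates, and this choice is read from a small set of DNA-binding proteins. PU.1, the product of Spi1, is needed by all of these fates and works with partners such as IRF8 and IRF4 at shared sites. IRF8 favours monocytes and dendritic cells over neutrophils, and with BATF3 it keeps up the conventional type 1 dendritic program. KLF4, ZEB2, NR4A1 and TCF7L2 act later or in branches of the monocyte lineage, NR4A1 being best known for the nonclassical, patrolling monocyte.

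The DMSO library held 9855 barcodes and 106792967 unique molecular identifiers (UMIs), and the DAB library 11631 barcodes and 165506902 UMIs. After filters, 9032 DMSO cells with a median of 7516.5 UMIs and 10476 DAB cells with a median of 9437 UMIs were kept. The libraries shared 152 barcode sequences. With 1 library per condition no test between conditions is possible, so a level is a sum of UMIs scaled by the total (counts-per-million, CPM), and a difference is the log2 ratio of DAB over DMSO with an exact 95% interval. All intervals cover counting error only, not the spread between cultures. A gene was called when its ratio was 0.5 or more from 0 on the log2 scale and its interval left out 0, among genes with at least 20 UMIs in the cells compared.

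Cells were placed in classes by marker genes after clustering without the 8 factors, and each class is called "-like" since its name rests on markers alone. Of 29 clusters, 16 carried a class name, and 3860 DMSO and 5065 DAB cells stayed in clusters with no name. The monocytic and dendritic classes were immature monocyte-like cells (898 DMSO and 156 DAB), mature monocyte-like cells with high MHC class II (491 and 501), macrophage-like cells (157 and 113) and activated dendritic-like cells (166 and 106). The classes with a granulocytic name were granulocyte progenitor-like cells (239 and 341), intermediate granulocyte-like cells (1761 and 1303), mature PMN-like cells (937 and 1055) and chemokine-high granulocyte-like cells (311 and 1514). B cell-like cells numbered 140 and 189, and basophil or mast cell-like cells 67 and 107.

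The markers bore out some of these names better than others. In B cell-like cells Cd79a, a part of the B cell receptor, stood at 1025 CPM in DMSO and 1743 CPM in DAB. In activated dendritic-like cells the migration receptor gene Ccr7 stood at 723 CPM in DMSO and 1320 CPM in DAB. The MHC class II gene H2-Aa reached 3195 and 3102 CPM in mature monocyte-like cells, where Cd209a, another marker of that list, was near 0 at 1.32 and 1.64 CPM. Some markers were much lower in DAB, where Ccr2 of immature monocyte-like cells was at 16.1 CPM against 199 CPM in DMSO, and C1qb of macrophage-like cells at 41.5 CPM against 504 CPM. Camp of intermediate granulocyte-like cells was at 600.3 CPM in DAB against 4027 CPM, and Elane of granulocyte progenitor-like cells at 614 CPM against 1454 CPM. Other markers of these lists were higher in DAB. In immature monocyte-like cells Spp1 (4750 to 6356 CPM), Mmp12 (3232 to 5237 CPM) and Fn1 (569 to 642 CPM) rose, and Lpl, Mgl2 and F13a1 fell. In intermediate granulocyte-like cells Retnlg (2176 to 8095 CPM) and Mmp8 (786 to 1381 CPM) rose, and the rest of the list fell. In granulocyte progenitor-like cells only Ctsg (239 to 328 CPM) rose. In macrophage-like cells Adgre1 stood at 229 CPM in DMSO and 270 CPM in DAB, but Apoe at 3.74 and 0.716 CPM, and Cd5l had 0 UMIs. Mature PMN-like cells had Csf3r at 610 CPM in DMSO and 334 CPM in DAB, and Il1r2 and Cxcr2 were also lower in DAB. The other markers of that list were higher in DAB, among them Mmp9 (600 and 1816 CPM), Cd9 (883 and 1819 CPM) and Il1rn (813 and 1675 CPM). The marker list of chemokine-high granulocyte-like cells holds chemokine genes only. Of these, Ccl3 was lower in DAB (1562 and 1125 CPM). The others were higher: Cxcl3 (1707 and 8397 CPM), Cxcl2 (1050 and 2552 CPM), Ccl4 (494 and 799 CPM) and Ccl6 (14294 and 18862 CPM). Gpnmb led cluster D of this class, where no mature PMN marker was among the 10 leading genes. No cluster met the rule for conventional type 1 dendritic, plasmacytoid dendritic or nonclassical monocyte cells, the types for which IRF8, BATF3 and NR4A1 are best known.

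Over all kept cells, 6 of the 8 factors were called lower in DAB and 0 were called higher. Among all 16368 genes tested, 16.7% were called lower and 13.8% higher, and the median log2 ratio was -0.02. Since the factors were chosen with earlier results of these data known, these counts are a description only. The 6 lower factors were Batf3, Klf4, Tcf7l2, Irf8, Nr4a1 and Irf4, while Spi1 lay on the other side of 0 without reaching the fold required. The log2 ratio of Spi1 exceeded that of each other factor by between 0.885 (Zeb2) and 2.10 (Batf3). A lower sum in a library can come from fewer cells of a class or from fewer UMIs of the gene per cell, and the mix of classes differed between the libraries. Without the 152 shared barcode sequences, 6 factors were again called lower and 0 higher.

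**Figure D1:**
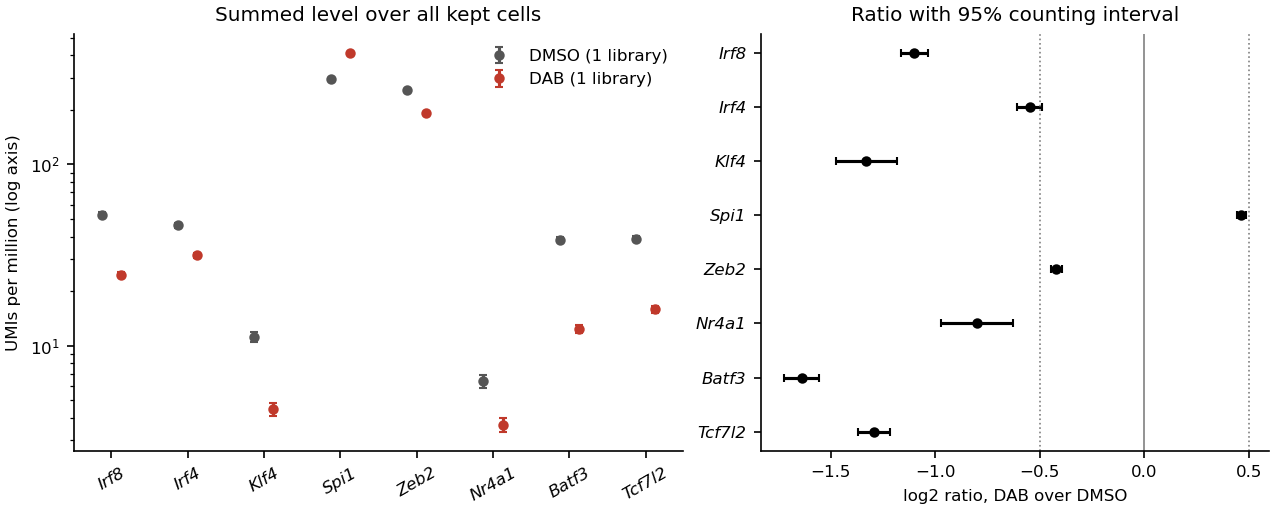
Left, the level of each factor over all kept cells of the DMSO (grey) and DAB (red) libraries in CPM on a log axis, with exact 95% Poisson intervals; right, the log2 ratio of DAB over DMSO with its 95% interval and dotted lines at the fold required, -0.5 and 0.5. Batf3 lies farthest to the left at -1.64, and Spi1, at 0.46, is alone to the right of 0.

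Batf3 (ENSMUSG00000026630, chr1:191097847-191108945, plus strand) encodes a basic leucine zipper factor that partners IRF8 and IRF4. It had 3541 UMIs in DMSO and 1732 in DAB, a fall from 38.4 to 12.3 CPM and a log2 ratio of -1.64 (95% interval -1.72 to -1.56). Of all genes tested, 2.50% had a lower ratio.

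Klf4 (ENSMUSG00000003032, chr4:55527143-55532466, minus strand), a zinc finger factor that drives monocyte differentiation, had 1031 UMIs in DMSO and 625 in DAB. Its level fell from 11.2 to 4.45 CPM, a log2 ratio of -1.33 (95% interval -1.47 to -1.18). As a mean over cells, where each cell counts alike, it was -0.75, which is beyond the fold required. The interval of the summed UMIs was used there, so the error of a mean over cells was not measured.

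Tcf7l2 (ENSMUSG00000024985, chr19:55741820-55933654, plus strand), which carries the transcriptional output of β-catenin, had 3580 UMIs in DMSO and 2226 in DAB. The fall from 38.8 to 15.9 CPM gave a log2 ratio of -1.29 (95% interval -1.37 to -1.22).

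Irf8 (ENSMUSG00000041515, chr8:120736358-120756694, plus strand) had 4867 UMIs in DMSO and 3460 in DAB, with up to 56 and 82 UMIs in 1 cell. Its level fell from 52.8 to 24.6 CPM, a log2 ratio of -1.10 (95% interval -1.16 to -1.04). With every cluster given the same weight in both libraries the log2 ratio of Irf8 was -0.37, which is under the fold required, and as a mean over cells it was -0.64.

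Nr4a1 (ENSMUSG00000023034, chr15:101254269-101274795, plus strand), an orphan nuclear receptor gene that antigen-receptor and other acute signals switch on, was sparse, with 588 UMIs in DMSO and 514 in DAB. It went from 6.38 to 3.66 CPM, a log2 ratio of -0.80 (95% interval -0.97 to -0.63). Without B cell-like cells, which held 299 of the 588 DMSO UMIs, the log2 ratio was 0.02 and the call was lost. With each cluster given the same weight in both libraries, the log2 ratio of Nr4a1 was -1.27.

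Irf4 (ENSMUSG00000021356, chr13:30749226-30766976, plus strand), the interferon regulatory factor of type 2 dendritic cells, monocyte-derived antigen-presenting cells and activated B cells, had 4253 UMIs in DMSO and 4428 in DAB. It went from 46.1 to 31.5 CPM, a log2 ratio of -0.55 (95% interval -0.61 to -0.49), close to the fold required. With each cluster given the same weight in both libraries it was -0.40 and not called.

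Zeb2 (ENSMUSG00000026872, chr2:44983632-45117395, minus strand), a repressor that acts in monocyte and plasmacytoid dendritic development, had 23566 UMIs in DMSO and 26825 in DAB. Its level was 256 CPM in DMSO and 191 CPM in DAB, a log2 ratio of -0.42 (95% interval -0.45 to -0.39), which missed the fold required. Taken as a mean over cells, the log2 ratio was -0.10.

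Spi1 (ENSMUSG00000002111, chr2:91082390-91115756, plus strand) had 27355 UMIs in DMSO and 57495 in DAB. The level was 297 CPM in DMSO and 409 CPM in DAB, a log2 ratio of 0.46 (95% interval 0.44 to 0.49) just under the fold required. Its interval left out 0, and 82.5% of all genes tested had a lower ratio.

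The start regions of the 4 factors with the largest fall over all cells are shown because their levels fell together, with log2 ratios beyond -1. Each runs from 250 bases before to 50 bases after a transcription start (RefSeq, GRCm38.p6), 5′ to 3′ on the gene's strand, and capitals mark GAGGAA, the core read by PU.1, and GGGCGG, the GC box read by SP and KLF proteins, on either strand. The RefSeq start of Batf3 lies 567 bases inside the annotated gene. The windows are chr1:191098164-191098463 (plus strand) for Batf3, chr4:55532426-55532725 (minus strand) for Klf4, chr19:55741560-55741859 (plus strand) for Tcf7l2 and chr8:120736108-120736407 (plus strand) for Irf8.
Batf3: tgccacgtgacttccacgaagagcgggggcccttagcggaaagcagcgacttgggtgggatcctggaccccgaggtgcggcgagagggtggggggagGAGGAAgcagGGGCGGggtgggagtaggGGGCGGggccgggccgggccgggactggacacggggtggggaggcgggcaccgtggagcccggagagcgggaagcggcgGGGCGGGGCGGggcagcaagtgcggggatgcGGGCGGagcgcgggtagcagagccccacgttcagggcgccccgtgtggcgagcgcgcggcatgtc
Klf4: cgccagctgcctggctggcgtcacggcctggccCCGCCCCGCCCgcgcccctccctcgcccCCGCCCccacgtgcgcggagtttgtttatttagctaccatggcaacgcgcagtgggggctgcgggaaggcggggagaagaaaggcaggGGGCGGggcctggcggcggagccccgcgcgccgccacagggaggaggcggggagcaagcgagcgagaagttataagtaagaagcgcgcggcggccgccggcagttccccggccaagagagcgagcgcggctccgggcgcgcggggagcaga
Tcf7l2: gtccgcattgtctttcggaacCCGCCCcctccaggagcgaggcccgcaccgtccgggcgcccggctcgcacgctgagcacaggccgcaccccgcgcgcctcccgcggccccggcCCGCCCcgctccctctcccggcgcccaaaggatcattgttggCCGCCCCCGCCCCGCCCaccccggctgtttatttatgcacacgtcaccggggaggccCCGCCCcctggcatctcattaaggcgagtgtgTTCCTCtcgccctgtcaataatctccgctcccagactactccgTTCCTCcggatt
Irf8: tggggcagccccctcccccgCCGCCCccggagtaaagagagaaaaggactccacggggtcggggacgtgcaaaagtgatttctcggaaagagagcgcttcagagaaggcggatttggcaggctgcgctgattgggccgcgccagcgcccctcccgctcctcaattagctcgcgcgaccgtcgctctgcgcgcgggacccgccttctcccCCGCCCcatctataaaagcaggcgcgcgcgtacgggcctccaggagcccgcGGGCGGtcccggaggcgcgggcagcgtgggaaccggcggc
All 4 windows hold at least 1 GC box, and those of Batf3 and Tcf7l2 also hold the PU.1 core.

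Start regions were found for 7 of the 8 factors, Spi1 having no entry. The start used for Nr4a1 lies 12577 bases inside the annotated gene. The GC box was in 6 of these 7, all but Zeb2, against 35.7% of 32851 mouse start regions of the same length. Windows with a GC box held from 61% (Irf4) to 75.7% (Batf3) G and C bases, that of Zeb2 49.3%, and the background was not matched for this. The PU.1 core was in 4 of the 7, those of Irf4, Zeb2, Batf3 and Tcf7l2, against 28.3% of all. The composite element of PU.1 and an interferon regulatory factor, GGAA and GAAA with 2 bases between, was in 0 of the 7 against 2.72% of all. The same held for the interferon-stimulated response element, GAAA and GAAA with 2 bases between (0 of 7 against 3.44%), the AP-1 motif TGANTCA (0 against 7.81%) and the C/EBP-ATF core TGATGNAA (0 against 3.97%). Both strands were searched, the composite and response elements can overlap where their GAAA falls together, and a match is a run of letters only.

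Irf8 was concentrated in activated dendritic-like and B cell-like cells. In activated dendritic-like cells it stood at 641 CPM in DMSO and 870 CPM in DAB, and this class, 166 and 106 cells, held 1747 of the 4867 DMSO UMIs and 1504 of the 3460 DAB UMIs. B cell-like cells followed at 520 and 462 CPM, then macrophage-like cells at 105 and 89.5 CPM. In none of these 3 classes was Irf8 called, with log2 ratios of 0.44 (95% interval 0.34 to 0.54), -0.17 (-0.37 to 0.03) and -0.23 (-0.58 to 0.11).

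Within classes, Irf8 was called lower in monocytic and granulocytic cells. The mix of classes differed as well, with activated dendritic-like cells at 1.84% of kept cells in DMSO and 1.01% in DAB. The share of immature monocyte-like cells was 9.94% in DMSO and 1.49% in DAB. The part of the mix in the all-cell fall of Irf8 was not tested. Immature monocyte-like cells went from 66.9 to 30.7 CPM, a log2 ratio of -1.12 (95% interval -1.47 to -0.79). Mature monocyte-like cells went from 46.1 to 21.2 CPM, also -1.12 (-1.34 to -0.91). In granulocyte progenitor-like cells, where IRF8 acts against the neutrophil fate, it went from 34.1 to 7.83 CPM, a log2 ratio of -2.12 (-2.52 to -1.73), and -3.53 with no alignment of the libraries. Chemokine-high granulocyte-like cells went from 21.4 to 8.15 CPM (-1.39, interval -1.93 to -0.83), whereas intermediate granulocyte-like and mature PMN-like cells were at or under 2.23 CPM in both libraries.

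The order of the Irf8 levels was alike in both libraries at the top. From activated dendritic-like down to granulocyte progenitor-like cells in DMSO, and down to mature monocyte-like cells in DAB, no neighbouring classes had overlapping intervals. Below that, the intervals of neighbours overlapped.

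Shares of cells with an Irf8 UMI were taken after thinning every cell to 1500 UMIs. Activated dendritic-like cells had a UMI in 76 of 164 cells of DMSO (46.3%, exact binomial interval 38.5 to 54.3) and 64 of 106 of DAB (60.4%, 50.4 to 69.7), against 85.5% and 87.7% without thinning. For mature monocyte-like cells the share was 46 of 489 (9.41%, 6.97 to 12.3) in DMSO and 17 of 500 (3.4%, 1.99 to 5.39) in DAB. Mature PMN-like cells, which should lack Irf8 and have median depths of 2869 and 2910 UMIs, had a UMI in 1 of 846 (0.118%, 0.00299 to 0.657) and 5 of 982 (0.509%, 0.165 to 1.18) thinned cells. The shares above lay beyond these intervals in both libraries. The shares of chemokine-high granulocyte-like cells, 5 of 296 (1.69%, 0.551 to 3.90) in DMSO and 12 of 1487 (0.807%, 0.418 to 1.41) in DAB, and of granulocyte progenitor-like cells in DAB, 7 of 341 (2.05%, 0.829 to 4.18), had intervals that overlapped those of mature PMN-like cells of the same library.

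Batf3 shared its peak with Irf8. It stood at 244 CPM in DMSO and 230 CPM in DAB in activated dendritic-like cells, a log2 ratio of -0.08 (95% interval -0.26 to 0.10), and no other class had an interval overlapping that level. Within this class, 126 of 166 DMSO cells had UMIs of both Irf8 and Batf3, 16 of Irf8 alone, 15 of Batf3 alone and 9 of neither. In DAB, 77 of 106 had both, 16 Irf8 alone, 10 Batf3 alone and 3 neither. These cells were named from Ccr7 and other activation markers, and Irf8 was left out of the genes that clustered them. The counts of cells with both were taken without thinning. Irf8 UMIs were in 85.5% of DMSO and 87.7% of DAB cells of this class, and Batf3 UMIs in 84.9% and 82.1%. Whether both genes met in a cell more often than these shares alone would give was not tested.

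Outside activated dendritic-like cells Batf3 was called lower in all 7 other classes in which it could be tested. Mature monocyte-like cells went from 72.7 to 32.7 CPM (log2 ratio -1.15, 95% interval -1.32 to -0.98) and immature monocyte-like cells from 52.3 to 10.6 CPM (-2.30, -2.91 to -1.75). Macrophage-like cells had 102 UMIs in DMSO and 12 in DAB, that is 63.6 and 8.60 CPM (-2.89, -3.89 to -2.02). Chemokine-high granulocyte-like cells went from 25.9 to 3.11 CPM (-3.06, -3.71 to -2.42), which was -2.29 with every cluster given its nearest class. Mature PMN-like cells kept a measurable level in both libraries, 41.4 and 19.0 CPM (-1.12, -1.58 to -0.68).

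Intermediate granulocyte-like cells (5.96 and 2.70 CPM, -1.14) and granulocyte progenitor-like cells (4.46 and 1.70 CPM, -1.39) completed the 7 classes at low levels. Basophil or mast cell-like cells had 0 Batf3 UMIs in either library, which allows up to 6.75 CPM in DMSO and 3.43 CPM in DAB, and B cell-like cells had 2 UMIs in each. After thinning, 0 of 128 DMSO and 0 of 174 DAB B cell-like cells had a Batf3 UMI, which allows shares of up to 2.34% and 1.72%. Activated dendritic-like cells had one in 55 of 164 (33.5%, 26.4 to 41.3) and 30 of 106 (28.3%, 19.98 to 37.9).

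Irf4 was spread over antigen-presenting classes. B cell-like cells led in DMSO at 170 CPM and stood at 99.8 CPM in DAB, a log2 ratio of -0.77 (95% interval -1.17 to -0.37). Activated dendritic-like cells were at 106 and 86.2 CPM (-0.30, -0.60 to -0.01) and mature monocyte-like cells at 99.2 and 68.8 CPM (-0.53, -0.66 to -0.40). The interval of activated dendritic-like cells overlapped that of mature monocyte-like cells in both libraries and that of B cell-like cells in DAB, while those of B cell-like and mature monocyte-like cells did not overlap.

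In immature monocyte-like cells Irf4 fell from 51.9 to 23.6 CPM (-1.14, -1.54 to -0.76). Granulocyte progenitor-like cells, at 31.0 and 29.5 CPM, gave -0.07 (-0.36 to 0.22), an interval that did not overlap that of Irf8 in the same class. Irf4 was called in 3 of 9 classes, always lower, but in mature monocyte-like cells 4 of 8 alternatives lost the call: Leiden resolution 1.5 (-0.34), no cell cycle regression (-0.36), 10 neighbours (-0.37) and clustering with the factors kept in (-0.4996). Its thinned share in mature monocyte-like cells was 70 of 489 (14.3%, 11.3 to 17.7) and 52 of 500 (10.4%, 7.87 to 13.4), against 13 of 846 (1.54%, 0.821 to 2.61) and 5 of 982 (0.509%, 0.165 to 1.18) mature PMN-like cells, which should hold little of it.

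Klf4 was low throughout, and its highest DMSO levels were in monocytic and chemokine-high granulocyte-like cells. Immature monocyte-like cells had 20.5 CPM in DMSO and 14.6 CPM in DAB (-0.49, -1.02 to 0.00421), macrophage-like cells 16.2 and 15.8 CPM (-0.04, -0.93 to 0.84) and chemokine-high granulocyte-like cells 15.8 and 10.3 CPM (-0.61, -1.19 to 0.00802). None of these was called. Mature monocyte-like cells, at 14.3 CPM in DMSO, were at 3.42 CPM in DAB, a log2 ratio of -2.06 (-2.55 to -1.58). Granulocyte progenitor-like cells fell from 7.31 to 2.27 CPM (-1.69, -2.50 to -0.90). B cell-like cells held 0 Klf4 UMIs in DMSO, which allows up to 4.44 CPM, and 2 in DAB.

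Tcf7l2 was called lower in 4 of 8 classes. It fell in granulocyte progenitor-like cells from 52.8 to 14.2 CPM (-1.90, -2.20 to -1.60), in immature monocyte-like cells from 42.8 to 24.0 CPM (-0.83, -1.24 to -0.45), in mature PMN-like cells from 66.7 to 38.1 CPM (-0.81, -1.14 to -0.48) and in chemokine-high granulocyte-like cells from 29.0 to 18.1 CPM (-0.68, -1.11 to -0.24). Macrophage-like cells differed by less than counting error, with 49.2 and 54.4 CPM (0.15, -0.33 to 0.62). Activated dendritic-like cells went the other way on few counts, 38 and 39 UMIs, or 13.9 and 22.6 CPM (0.70, 0.01 to 1.38). In DMSO, the intervals of mature PMN-like, granulocyte progenitor-like, macrophage-like and immature monocyte-like cells overlapped from each to the next. Basophil or mast cell-like cells had 0 Tcf7l2 UMIs in both libraries, which allows up to 6.75 CPM in DMSO and 3.43 CPM in DAB. Other ways of clustering moved some of these values: in mature PMN-like cells the call was lost with 10 neighbours (-0.44), at Leiden resolution 0.5 (-0.47) and with no cell cycle regression (-0.49), in granulocyte progenitor-like cells the ratio was -1.23 with no alignment, and in mature monocyte-like cells, at -0.49 just short of a call, it was -1.05 at Leiden resolution 0.5.

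The level of Nr4a1 was highest in B cell-like cells in both libraries. B cell-like cells had 299 UMIs in DMSO and 67 in DAB, of 588 and 514 in all, that is 442 and 64.3 CPM and a log2 ratio of -2.78 (95% interval -3.19 to -2.39). They came from 61 of 140 cells in DMSO and 21 of 189 in DAB, and the 10 highest cells held 59.5% and 82.1% of them. After thinning the shares were 39 of 128 (30.5%, 22.7 to 39.2) and 9 of 174 (5.17%, 2.39 to 9.59), against 1 of 164 and 1 of 106 activated dendritic-like cells.

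In every myeloid class Nr4a1 was at or below 10.7 CPM in both libraries. It was called lower in mature monocyte-like cells (44 and 24 UMIs, -1.45), granulocyte progenitor-like cells (17 and 16 UMIs, -1.19) and chemokine-high granulocyte-like cells (21 and 72 UMIs, 10.7 and 6.05 CPM, -0.82), and higher in activated dendritic-like cells (6 and 15 UMIs, 1.98, interval 0.53 to 3.63). Without thinning, 3.01% of the 166 DMSO and 3.77% of the 106 DAB activated dendritic-like cells held an Nr4a1 UMI. The interval treats UMIs of the same cell as independent. Immature monocyte-like cells had 21 UMIs in DMSO, 1.35 CPM, and 0 in DAB, which allows up to 1.45 CPM by the exact Poisson interval, and Nr4a1 was not called there. The sign in 2 of these classes turned under other ways of clustering: granulocyte progenitor-like cells gave 0.25 with no alignment of the libraries, and chemokine-high granulocyte-like cells gave 0.95 with no cell cycle regression.

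Spi1 was broad. Mature monocyte-like cells (370 and 562 CPM), intermediate granulocyte-like cells (363 and 424 CPM) and mature PMN-like cells (346 and 553 CPM) led in DMSO with overlapping intervals, and B cell-like cells were lowest at 35.5 and 59.5 CPM. It was called higher in mature PMN-like cells (log2 ratio 0.68, 95% interval 0.57 to 0.79), mature monocyte-like cells (0.60, 0.55 to 0.66), activated dendritic-like cells (149 and 241 CPM, 0.70, 0.50 to 0.90) and B cell-like cells (24 and 62 UMIs, 0.75, 0.04 to 1.49). The other 5 classes gave ratios between 0.13 (immature monocyte-like) and 0.47 (chemokine-high granulocyte-like). The call in mature PMN-like cells was lost with no alignment, at 0.41, and with every cluster given its nearest class, at 0.47, where Nr4a1 was called higher instead (0.54, 0.03 to 1.05). After thinning, 202 of 489 (41.3%, 36.9 to 45.8) DMSO and 282 of 500 (56.4%, 51.9 to 60.8) DAB mature monocyte-like cells had a Spi1 UMI, against 7 of 128 (5.47%, 2.23 to 10.9) and 19 of 174 (10.9%, 6.70 to 16.5) B cell-like cells, at median depths of 3967 and 4828 UMIs.

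Zeb2 moved in opposite directions in different classes. It was highest in macrophage-like cells (607 and 471 CPM, -0.37) and chemokine-high granulocyte-like cells (592 and 434 CPM, -0.45), where it missed the fold required, and immature monocyte-like cells held 422 and 459 CPM (0.12). Mature monocyte-like cells went from 118 to 27.2 CPM, a log2 ratio of -2.12 (95% interval -2.29 to -1.95), with a UMI in 68 of 489 (13.9%, 11.0 to 17.3) and 18 of 500 (3.6%, 2.15 to 5.63) thinned cells. That ratio was -1.42 with 10 neighbours and -1.43 with no alignment. Granulocyte progenitor-like cells went from 107 to 45.1 CPM (-1.24, -1.42 to -1.06) and activated dendritic-like cells from 64.9 to 40.5 CPM (-0.68, -1.10 to -0.27). With every cluster given its nearest class, the value in granulocyte progenitor-like cells was -0.53. B cell-like cells, on 26 and 201 UMIs, went from 38.4 to 193 CPM (2.33, 1.73 to 2.98), with a UMI in 21 of 140 and 89 of 189 cells before thinning. No class is known to lack Zeb2, and the part of free RNA in the B cell-like value was not tested.

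**Figure D2:**
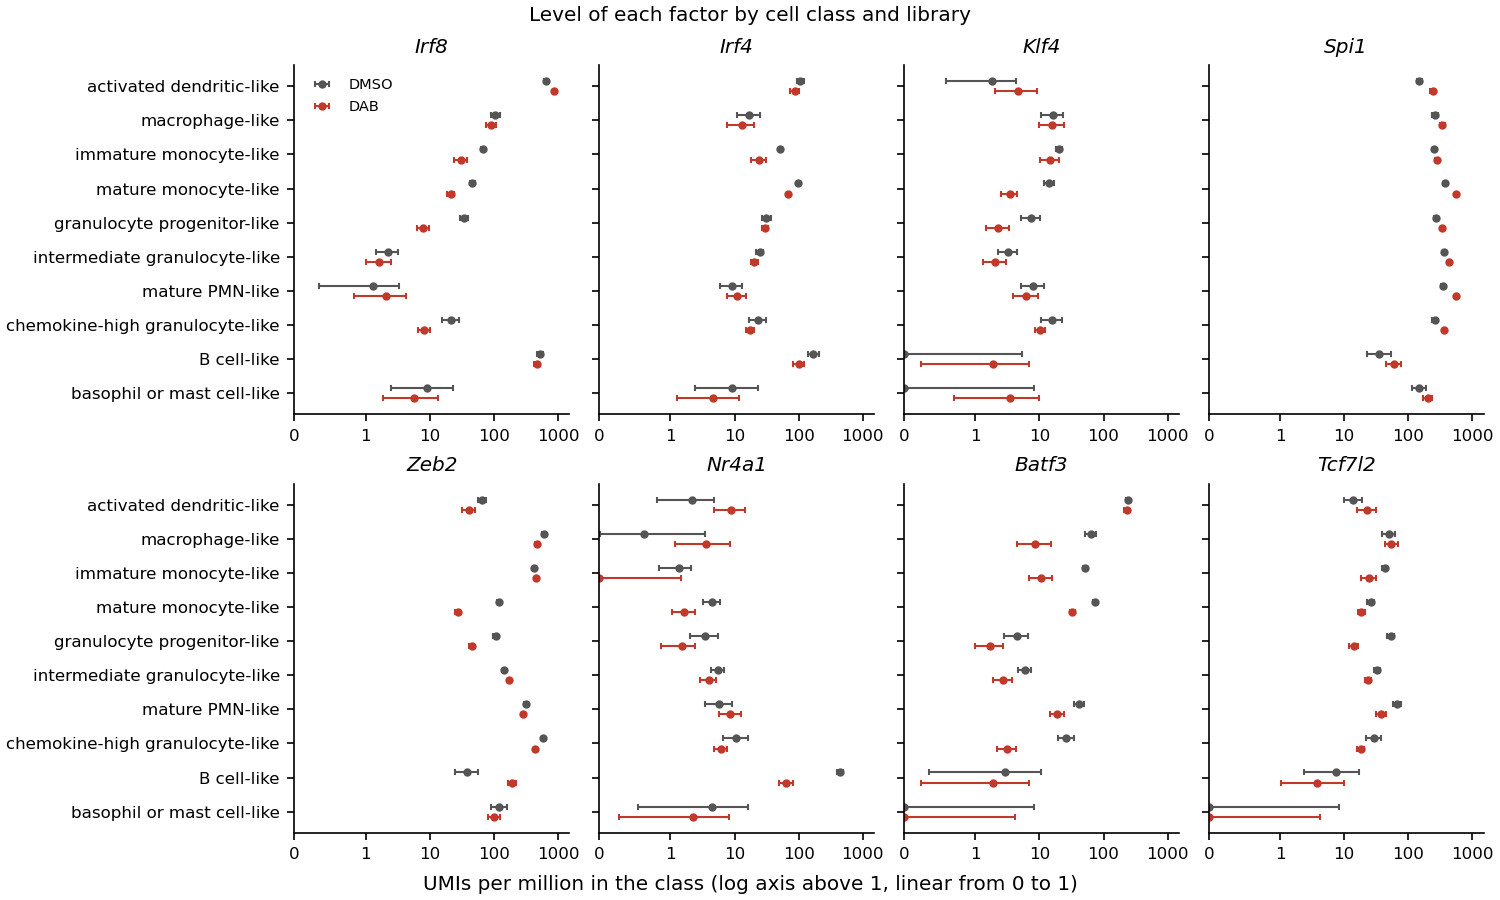
The level of each factor in 10 cell classes of the DMSO (grey) and DAB (red) libraries, in CPM within the class on an axis that is linear from 0 to 1 and logarithmic above, with exact 95% Poisson intervals. Irf8 and Batf3 peak in activated dendritic-like cells (641 and 244 CPM in DMSO), Nr4a1 in B cell-like cells (442 CPM), and Spi1 is lowest in B cell-like cells (35.5 CPM).

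Counted by class, the factors differed most in mature monocyte-like and granulocyte progenitor-like cells. Mature monocyte-like cells had 6 of 8 called lower (Irf8, Irf4, Klf4, Zeb2, Nr4a1 and Batf3) and 1 higher (Spi1), where 20.2% of all genes tested were called lower and 14.2% higher. In granulocyte progenitor-like cells 6 of 8 were called lower (Irf8, Klf4, Zeb2, Nr4a1, Batf3 and Tcf7l2) and 0 higher, where 17.5% of all genes were called lower and 14.8% higher. Both shares are above the background of lower calls. The factors were chosen with earlier results of these data known, so this is a description only. In granulocyte progenitor-like cells Batf3 rested on 22 DMSO and 18 DAB UMIs, and Nr4a1 on 17 and 16. Median depths in these classes were 19649 and 28734 UMIs, and 19840 and 30543 UMIs, for DMSO and DAB.

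The other granulocytic classes gave fewer calls. In chemokine-high granulocyte-like cells 4 of 8 were called lower (Irf8, Nr4a1, Batf3 and Tcf7l2) and 0 higher, against 11.4% lower and 9.37% higher of all genes. Cluster D, 1 of the 2 clusters of this class, held most of its cells in both libraries (234 of 311 and 850 of 1514). In mature PMN-like cells 2 of 7 tested were called lower (Batf3 and Tcf7l2) and 1 higher (Spi1), against 8.64% and 21.7%. The make-up of this class differed between libraries, since cluster X held 33 of its 937 DMSO cells and 289 of its 1055 DAB cells. In intermediate granulocyte-like cells 1 of 8 was called lower (Batf3) and 0 higher, against 13% and 23.4%. The lower count is close to the background, and clusters A and F held most of this class in DMSO and clusters A and S in DAB.

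The remaining 4 classes had fewer than 200 cells in at least 1 library. In immature monocyte-like cells 4 factors were called lower (Irf8, Irf4, Batf3 and Tcf7l2) and 0 higher, against 15.6% and 8.64% of all genes. In macrophage-like cells 1 was called lower (Batf3) and 0 higher, against 12.0% and 9.04%. In activated dendritic-like cells 1 was called lower (Zeb2) and 3 higher (Spi1, Nr4a1 and Tcf7l2), against 12.7% and 9.97%. In B cell-like cells 2 were called lower (Irf4 and Nr4a1) and 2 higher (Spi1 and Zeb2), against 8.28% and 15.2%. Some factors had under 20 UMIs and were not tested. These were Nr4a1 in macrophage-like cells, Klf4 in activated dendritic-like cells, and Klf4, Batf3 and Tcf7l2 in B cell-like cells.

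**Figure D3:**
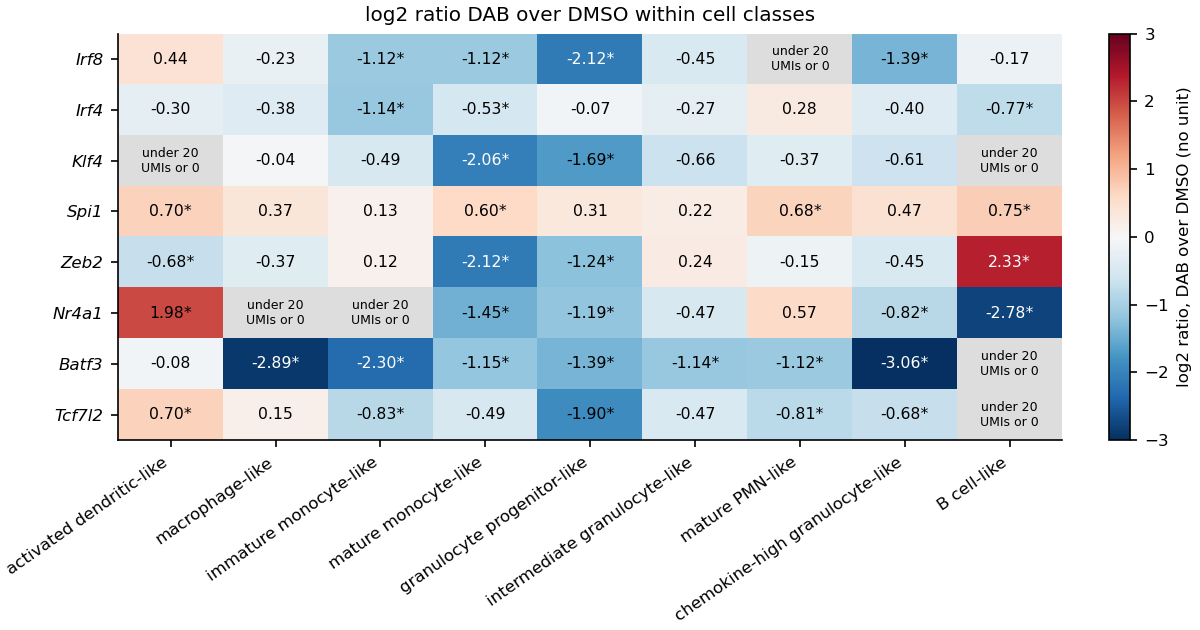
The log2 ratio of DAB over DMSO (no unit) for the 8 factors in 9 classes, those of 100 cells or more in both libraries, with an asterisk where the ratio was called and grey where under 20 UMIs were summed or a library was at 0. Batf3 is negative in all 8 tested classes, Spi1 positive in all 9, and Zeb2 runs from -2.12 in mature monocyte-like to 2.33 in B cell-like cells.

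The same ratios were taken cluster by cluster in the 23 that had 100 cells or more in both libraries, named or not. Batf3 was below 0 in all 21 clusters where it had enough UMIs, with a median log2 ratio of -1.39, and Spi1 was above 0 in all 23, with a median of 0.38. Klf4 was below 0 in 16 of 17 clusters (median -1.28), Irf8 in 15 of 18 (median -1.12), Tcf7l2 in 19 of 22 (median -0.99), Zeb2 in 19 of 23 (median -0.27) and Irf4 in 16 of 22 (median -0.34). Nr4a1 had no common direction, with 6 of 15 clusters below and 8 above 0. In the remaining cluster, E (immature monocyte-like), Nr4a1 had 21 UMIs in 898 DMSO cells and 0 in 156 DAB cells. This gave no finite ratio, and the interval held 0, with an upper end of 0.24.

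Several of the lowest cluster values lay outside the named classes. Irf8 was lowest in cluster L (-2.48), Klf4 and Irf4 in cluster J (-2.29 and -1.43) and Tcf7l2 in cluster O (-2.69), none of which had a class name. Clusters of 1 library share that library, so these counts describe how uniform the difference was across cells and are not replicates.

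**Figure D4:**
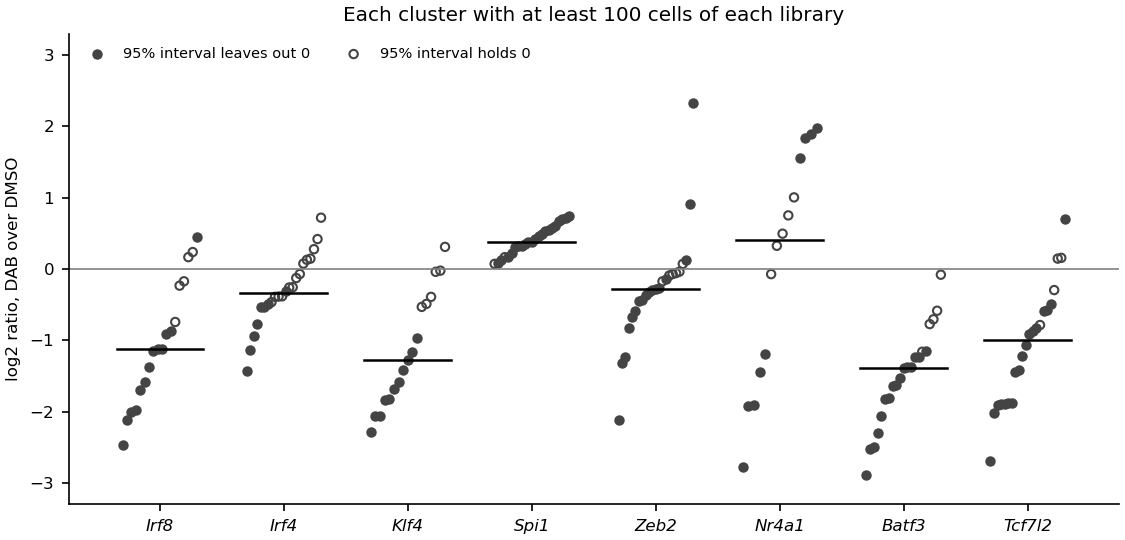
The log2 ratio of DAB over DMSO for each factor in each cluster of 100 cells or more in both libraries and 20 UMIs or more of the gene, filled where its 95% interval leaves out 0 and open where it holds 0, with a line at the median. Batf3 and Spi1 lie on 1 side of 0 in every cluster shown (medians -1.39 and 0.38), and Nr4a1 lies on both sides. Cluster E is not shown for Nr4a1, which had 0 UMIs there in DAB.

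The activated dendritic-like and immature monocyte-like cells of the DMSO library were set side by side as 1 dendritic and 1 monocytic class. Activated dendritic-like cells had more Irf8 (log2 difference 3.26, 95% interval 3.15 to 3.37), Batf3 (2.22, 2.07 to 2.37) and Irf4 (1.03, 0.84 to 1.23). Immature monocyte-like cells had more Klf4 (-3.48, -5.11 to -2.24), Zeb2 (-2.70, -2.92 to -2.48), Tcf7l2 (-1.62, -2.13 to -1.15) and Spi1 (-0.77, -0.92 to -0.62). The interval for Nr4a1 held 0 (0.71, -0.89 to 2.07). Both sets come from 1 library, and these differences are a description. Against mature monocyte-like DMSO cells the Irf4 intervals overlapped (106 and 99.2 CPM), while Irf8, Batf3, Klf4, Zeb2, Tcf7l2 and Spi1 differed in the same directions.

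Across clusters, some factors followed each other. Over 27 clusters of 50 cells or more per library, Pearson's r of log2(CPM + 10) between Irf8 and Irf4 was 0.749 in DMSO and 0.607 in DAB, and between Irf8 and Batf3 0.436 and 0.524. Irf8 and Spi1 ran in opposite directions at -0.687 and -0.657. Klf4 and Zeb2, both high in immature monocyte-like cells, gave 0.652 and 0.575. The points of each correlation share a library and its depth, and how far single clusters with high levels set r was not tested.

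Among 9601 other genes, the 3 with the most alike pattern in both libraries were named for each factor. For Irf8 they were Rras2 (r = 0.886 in DMSO and 0.868 in DAB), Cd40, a costimulatory receptor gene of antigen-presenting cells (0.865 and 0.878), and Tubb2b (0.846 and 0.855). For Irf4 they were H2-DMb2, which helps load MHC class II (0.813 and 0.841), Ciita, the class II transactivator (0.756 and 0.780), and Il21r (0.751 and 0.755). For Batf3 they were Cxcl16 (0.833 and 0.861), Fam49a (0.815 and 0.830) and Cst3, a gene abundant in dendritic cells (0.809 and 0.804).

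For Spi1 they were Gsn, an actin-severing protein gene (0.938 and 0.908), Arpc1b, of the Arp2/3 complex (0.888 and 0.853), and Myadm (0.916 and 0.844). For Zeb2 they were the endocytic receptor gene Lrp1 (0.848 and 0.858), Bcl2l1 (0.848 and 0.843) and Lhfpl2 (0.839 and 0.824). For Klf4 they were F7, coagulation factor VII (0.841 and 0.730), Prdx1 (0.732 and 0.727) and Stard9 (0.734 and 0.700). Nr4a1 followed Nfkbid (0.883 and 0.895), Pou2f2 (0.882 and 0.877) and the immunoglobulin segment Ighv1-64 (0.937 and 0.864), and Tcf7l2 followed Mob3b (0.80 and 0.779), Skap2 (0.820 and 0.774) and Lpp (0.794 and 0.751). In DMSO, Nr4a1 stood at 442 CPM in B cell-like cells and at no more than 10.7 CPM in the myeloid classes. How far the B cell-like cluster sets these values of Nr4a1 was not tested.

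Of 23 other factors of the monocyte and dendritic lineages, all tested over all cells, 2 were called higher and 5 lower, with a median log2 ratio of -0.26 against -0.02 over all genes. Egr2 (22.8 to 14.8 CPM, -0.63) and Nfil3 (154 to 108 CPM, -0.52), a factor needed for dendritic progenitors, were among the lower ones. Ikzf1, which encodes Ikaros, rose from 52.8 to 99.7 CPM (0.92, 0.87 to 0.97). Within mature monocyte-like cells 4 of the 22 tested were called higher and 8 lower, with a median of -0.26.

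Granulocyte factors gave 1 higher and 1 lower call among 7 over all cells, with a median log2 ratio of -0.20. Cebpe, which drives the secondary granule stage, went from 45.8 to 77.1 CPM (0.75), and Mxd1, an antagonist of MYC, from 132 to 50.8 CPM (-1.38). Among mature monocyte-like cells 5 of the 6 tested were called lower and 0 higher, with a median of -1.08.

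Receptor and effector genes that PU.1 activates did not move as 1 group. Of 13 tested, 2 were called higher, Fcgr1 (12.2 to 25.6 CPM, 1.07) and Csf2ra, the GM-CSF receptor α chain (102 to 167 CPM, 0.71). The 2 called lower were Cybb, the NADPH oxidase core (258 to 105 CPM, -1.30), and Csf3r, the G-CSF receptor (60.6 to 29.6 CPM, -1.03). The median was 0.17 over all cells and -0.38 in mature monocyte-like cells, where 1 was called higher and 4 lower.

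Classical monocyte genes split as well. Ly6c2 rose from 350 to 612 CPM (0.81), while F13a1 (122 to 34.2 CPM, -1.83) and the chemokine receptor gene Ccr2 (104 to 29.9 CPM, -1.80) fell, so that 1 of 8 was called higher and 2 lower. In mature monocyte-like cells 6 of the 8 were called lower and 0 higher, with a median of -1.94 against -0.04 over all genes of that class.

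Of 8 nonclassical monocyte genes 3 were called higher and 3 lower over all cells, with a median of -0.05. The 3 higher were Pecam1 (48.7 to 81.2 CPM, 0.74), Itgal (27.7 to 40.7 CPM, 0.56) and Spn (28.8 to 41.9 CPM, 0.54), which many leukocytes carry. The 3 lower, which were under the level set for naming genes and were picked after their values were seen, were Cd36 (16.7 to 1.31 CPM, -3.67), Ace (1.32 to 0.164 CPM, -3.01) and Cx3cr1 (7.02 to 2.22 CPM, -1.66). In mature monocyte-like cells 2 of the 7 tested were called higher and 3 lower, with a median of -0.26.

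Dendritic genes gave calls in both directions. Among 7 tested genes of conventional type 1 dendritic cells 3 were called lower and 2 higher (median -0.93), but most were rare: Xcr1, the defining receptor, had 7 and 11 UMIs. Naaa went from 124 to 29.8 CPM (-2.05). Of 8 genes of conventional type 2 dendritic cells 3 were called lower and 0 higher (median -0.35), namely the chemokine gene Ccl17 (275 to 36.7 CPM, -2.91) and the lectins Clec10a (102 to 37.5 CPM, -1.44) and Mgl2 (769 to 375 CPM, -1.04). In mature monocyte-like cells these lists gave 2 higher and 2 lower of 4, and 0 higher and 4 lower of 8.

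Of 7 genes of monocyte and dendritic progenitors 2 were called higher and 3 lower, with a median of -0.23. Cd34, a stem and progenitor cell surface protein, went from 9.46 to 42.7 CPM (2.18, 95% interval 2.07 to 2.28). Ly86 (44.9 to 16.4 CPM, -1.46) and Clec12a (84.6 to 59.5 CPM, -0.51) were lower. In mature monocyte-like cells 2 were called higher and 3 lower, with a median of 0.05.

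**Figure D5:**
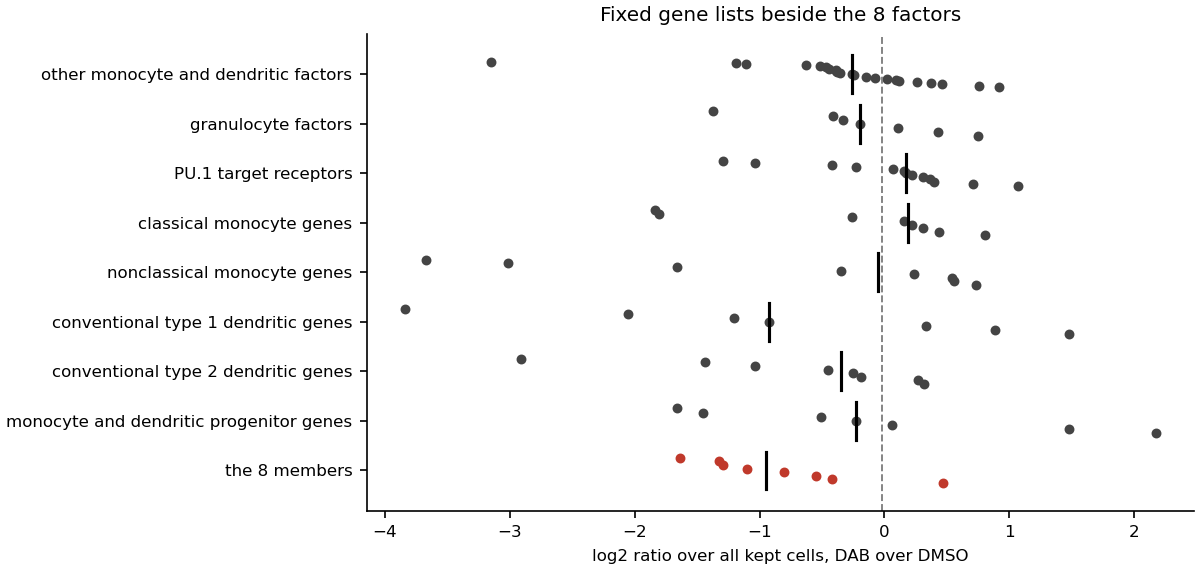
The log2 ratio of DAB over DMSO over all kept cells for each tested gene of 8 gene lists (grey) and for the 8 factors (red), with a black bar at each median and a dashed line at the median of all genes tested, -0.02. Each list holds genes on both sides of 0, from Clec9a at -3.84 to Cd34 at 2.18, and among the 8 factors only Spi1, at 0.46, lies above 0.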

How the data were processed

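The data were droplet libraries of mouse bone marrow MDSC, 1 of DAB and 1 of DMSO. The deposited values are raw UMI counts per gene and barcode, made by the authors with Cell Ranger 7.0.0 on mm10, with no normalization. Barcodes over 10% mitochondrial UMIs were left out (55 DMSO, 89 DAB), a limit of 4 median absolute deviations removed 0, and a score from simulated doublets (2 per barcode) removed 768 and 1066, a number set by a rate that rises with the barcodes captured. Pearson residuals (theta 100) of 3000 variable genes, without the 8 factors and the listed ones, had cell cycle and mitochondrial scores regressed out. On 40 principal components, mutual nearest neighbours (k = 20) aligned both libraries, which were clustered by Leiden at resolution 0.9, the best of 10 starts.

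A cluster took the class with the highest mean marker log2 fold, if at least 3 markers and no less than 0.5 of those detected stood at a log2 fold of 1 or more and its own markers were among its 10 leading genes, not fewer than those of another class. For a granulocytic name, either Csf3r or S100a8 had to exceed its level elsewhere. The naming rule was written once the clusters had been inspected. The members and lists were chosen with earlier results of these data known. Named genes were the 8 factors, of each list the genes called with at least 20 CPM in a library (at most 4 per direction), and for each factor the 3 genes most alike in both libraries. One gene that this rule names is not reported here.

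Summed counts were compared as log2 ratios with exact conditional binomial intervals (95%). For shares, each cell was thinned to 1500 UMIs, and shallower cells (436 of DMSO, 292 of DAB) were dropped. Limits for a count of 0 are 3 counts, except where an exact interval is named. Counts of 16193 genes were simulated with Poisson error only for the comparison over all cells. Of these, 50 of 50 genes were called at each of log2 1, -1, 2 and -2, and 154 of 15993 unchanged genes were called. Such counts hold no spread between cells or cultures, so they check the calculation and not the error rate of the real calls. Alternatives changed the cell filters, doublets, scaling, weighting, fold limit, count minimum, alignment, clustering and naming, and leaving out shared barcodes was added after seeing the data. For the weightings by cell and by cluster, the interval of the summed UMIs was moved to the new ratio. Python 3.11.15 was used with leidenalg 0.10.2, igraph 0.11.9, scikit-learn 1.9.0, scipy 1.17.1, numpy 2.4.6 and pandas 2.3.3. Gene positions are from GENCODE on GRCm38.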

Additional observations from a re-analysis of the deposited data

Results flagged for a closer look

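Of the 8 factors, 3 were called in opposite directions in different cell classes. The difference between classes was not tested, since each rests on 1 library per condition. The log2 ratio of Zeb2 was -1.24 in granulocyte progenitor-like, -2.12 in mature monocyte-like and -0.68 in activated dendritic-like cells, and 2.33 in B cell-like cells. For Nr4a1 it was -0.82 in chemokine-high granulocyte-like, -1.19 in granulocyte progenitor-like, -1.45 in mature monocyte-like and -2.78 in B cell-like cells, and 1.98 in activated dendritic-like cells, the last on 6 DMSO and 15 DAB UMIs. That of Tcf7l2 was -0.81 in mature PMN-like, -0.68 in chemokine-high granulocyte-like, -1.90 in granulocyte progenitor-like and -0.83 in immature monocyte-like cells, and 0.70 in activated dendritic-like cells, the last on 38 and 39 UMIs. The Nr4a1 UMIs of activated dendritic-like cells came from 3.01% of DMSO and 3.77% of DAB cells of that class.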

How the results depend on the processing

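Over all cells, 7 of the 8 factors kept their sign in all 9 alternatives. The alternatives of fold limit (log2 of 1) and count minimum (200 UMIs) leave the ratios as they are, so they could not change a sign. With the fold limit of 1, 4 factors were called lower and 0 higher. The share of all genes called at that limit is not given, so this count has no background beside it. Nr4a1 went to 0.0226 without B cell-like cells. With each cluster given the same weight in both libraries, Irf8 (-0.37) and Irf4 (-0.40) lost the call. The causes were not tested. Within classes, Nr4a1 turned to 0.25 in granulocyte progenitor-like cells with no alignment, and in chemokine-high granulocyte-like cells to 0.95 with no cell cycle regression and to 0.10 with every cluster given its nearest class. The count of factors higher in mature PMN-like cells, 1, became 0 with no alignment and 2 with Leiden resolution 0.5, no cell cycle regression or 10 neighbours. The count lower in intermediate granulocyte-like cells, 1, became 3 with no alignment or no cell cycle regression and 2 with 10 neighbours. Shares of all genes are not given for these other clusterings. The share of activated dendritic-like DMSO cells with an Irf8 UMI, 46.3%, was 85.5% with no thinning and 65.8% with thinning to 3000 UMIs. Granulocyte progenitor-like cells were under 200 in a library at resolutions 0.5 and 1.5 and with no cell cycle regression, which gave no value. No library could be left out, with 1 per condition. No paired analysis was possible because each condition has 1 library. Depth limits the low factors most: Nr4a1 and Klf4 rested on under 50 UMIs per library in most classes.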
